A study of Homo sapiens with 18 samples.

Results

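MYC, its partner MAX and 36 ribosome biogenesis factors were followed through RNA-seq libraries of the LNCaP line, human prostate cancer cells that respond to androgen, after PARP inhibitor treatment or PARP siRNA transfection. The 38 genes were taken by symbol from a list. Of these, 37 were found in each of the 2 deposited tables, which hold 21391 features (inhibitors) and 18350 features (siRNAs). UTP4 stood in the inhibitor table under its older symbol CIRH1A, and BOP1 was matched in neither table and was not analysed here. Each of the 37 had a mean of at least 1 unit in both tables and so passed the filter on low values.

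In the inhibitor table the cells received the vehicle DMSO, or UPF1069, olaparib or veliparib at 10 uM, for 24 hours. In the siRNA table they received the control siNC or 1 of 4 siRNAs for 72 hours: siPARP1-A and siPARP1-B against PARP1, siPARP2-A and siPARP2-B against PARP2. Each of the 9 groups had 2 libraries, described by the submitters as biological duplicates, and every group is the same cell line, so the data describe 1 line. Olaparib and veliparib are clinical inhibitors of PARP1 and PARP2, and UPF1069 is a laboratory compound described as favouring PARP2.

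Ribosomes are built in the nucleolus. RNA polymerase I transcribes a long precursor rRNA, small nucleolar ribonucleoproteins (snoRNPs) modify it, and assembly factors cut and fold it into the small and large subunits. MYC, a transcription factor that binds DNA as a dimer with MAX, is known to drive genes at each of these steps, and the dimer prefers the E-box hexamer CACGTG. In prostate cancer, MYC is known as an oncogene and nucleolar enlargement as a feature of the tumour cells.

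The promoter sequences are shown because the hexamer lies in many of them. RefSeq windows from 250 bases before to 50 bases after a transcript start (GRCh38.p14) were found for 31 of the 37 genes. MYC, NOP58, NOLC1, RRP12, RRS1 and URB2 had no entry. The hexamer, which reads the same on both strands, was present in the windows of 15 of the 31 genes (48.4%), against 8.77% of all 27305 genes with a window and 12.1% of the 12008 such genes present in both tables. The 30 bases around it follow for the genes with a hexamer that rose the most with siPARP2-A (BYSL, PES1, GAR1), that fell the most with olaparib (MYBBP1A, NOP14), and for GNL3 and NOP10, which rose with olaparib. They are written 5′ to 3′ on the strand of the gene, with the hexamer in capitals.
BYSL: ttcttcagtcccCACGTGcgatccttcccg
PES1: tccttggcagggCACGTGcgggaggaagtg
GAR1: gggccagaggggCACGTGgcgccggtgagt
MYBBP1A: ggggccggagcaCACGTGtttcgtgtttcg
NOP14: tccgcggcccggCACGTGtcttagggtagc
GNL3: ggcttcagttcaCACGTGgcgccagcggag
NOP10, upstream site: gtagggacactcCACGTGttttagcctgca
NOP10, site at the start: gaaattgacgaaCACGTGacgcggtcgggc
On GRCh38.p14 these stretches are chr6:41921515-41921544 (plus strand, BYSL), chr22:30591880-30591909 (minus, PES1), chr4:109815781-109815810 (plus, GAR1), chr17:4555340-4555369 (minus, MYBBP1A), chr4:2963374-2963403 (minus, NOP14), chr3:52686026-52686055 (plus, GNL3), chr15:34343289-34343318 (minus, NOP10 upstream) and chr15:34343130-34343159 (minus, NOP10 start). A hexamer in a window is a description of letters and not a measured binding site.

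The libraries held 26.43 to 35.7 M reads assigned to genes in the inhibitor table and 15.45 to 18.62 M in the siRNA table. Inhibitor values are reads per 1 M reads (CPM) after a scaling of each library by 0.9906 to 1.0094. The siRNA values are reads per 1 M after a scaling of each library by 0.891 to 1.0366, called normalised reads below. PARP1 was at 452 and 479 normalised reads in siNC, 4.78 and 5.67 in siPARP1-A, 8.99 and 9.05 in siPARP1-B and 409 and 395 in siPARP2-A. It was also low in siPARP2-B, at 160.5 and 145. PARP2 was at 29.0 and 25.8 in siNC, 3.06 and 2.56 in siPARP2-A and 1.78 and 1.01 in siPARP2-B. All 10 prostate luminal markers examined were present, with summed levels of 4381 to 6077 CPM and 2856 to 7905 normalised reads. The summed levels were at most 1.32 and 2.70 for basal markers, 19.1 and 8.11 for stromal markers and 11.4 and 8.56 for immune and endothelial markers. The p-values below are from limma on log2(value + 1), adjusted by Benjamini-Hochberg over 13337 or 12701 genes, and a gene is said to rise or fall where its adjusted p was below 0.05.

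MYC mRNA was lower after olaparib and veliparib and higher after 3 of the 4 siRNAs. It was at 295 and 296 CPM in DMSO, 285 and 285 with UPF1069, 203 and 192 with olaparib and 233 and 229.8 with veliparib. The olaparib libraries were the lowest, the veliparib libraries lay between them and the rest, and these 2 groups overlapped with neither DMSO nor UPF1069. In limma's fit MYC fell by 0.58 on the log2 scale with olaparib (SE 0.04, 95% interval -0.66 to -0.50, adjusted p = 1.43e-11), which is 0.669 times the DMSO level. It fell by 0.35 with veliparib (SE 0.04, adjusted p = 1.78e-07). With UPF1069 the difference was -0.05 (95% interval -0.13 to 0.03, adjusted p = 0.342). In bulk RNA a lower level can come from fewer cells that express a gene or from less RNA in each cell, and these cannot be told apart.

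In the siRNA table MYC was at 53.0 and 52.9 normalised reads in siNC, 76.7 and 75.0 in siPARP1-A, 71.7 and 73.8 in siPARP1-B, 88.1 and 93.0 in siPARP2-A and 56.4 and 55.5 in siPARP2-B. Every library of the 4 siRNA groups was above both siNC libraries, and the siPARP2-A libraries were the highest. By limma MYC rose by 0.51 with siPARP1-A (SE 0.06, adjusted p = 2.48e-07), by 0.45 with siPARP1-B (adjusted p = 3.66e-06) and by 0.76 with siPARP2-A (adjusted p = 4.38e-10), the last being 1.70 times the siNC level. With siPARP2-B the difference was 0.08 (95% interval -0.05 to 0.21, adjusted p = 0.294). These 4 comparisons share the siNC libraries. MYC stood at a lower value in siNC than in DMSO, but the tables were scaled apart and differ in transfection and time, so no test sets them against each other.

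MAX, which dimerises with MYC and with the MXD antagonists of MYC, was called against its control in 2 groups, both of PARP1 siRNAs. It was at 41.4 and 45.0 CPM in DMSO, and the 6 inhibitor libraries ranged from 40.4 to 46.0 CPM. The differences from DMSO ran from -0.02 (veliparib) to 0.06 (olaparib) on the log2 scale, with adjusted p of at least 0.379 by limma. Among the siRNAs it was at 49.4 and 44.4 normalised reads in siNC, 65.4 and 68.0 in siPARP1-A and 34.0 and 36.4 in siPARP1-B. The PARP1 siRNAs thus lay on opposite sides of siNC without overlap. MAX rose by 0.50 with siPARP1-A (SE 0.08, adjusted p = 6.52e-06) and fell by 0.40 with siPARP1-B (SE 0.08, adjusted p = 0.000182), and limma's direct contrast of the 2 sequences was 0.90 (95% interval 0.74 to 1.06, adjusted p = 4.11e-10). With siPARP2-A (42.6 and 46.5) and siPARP2-B (41.7 and 45.4) the libraries overlapped with siNC.

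**Figure D1:**
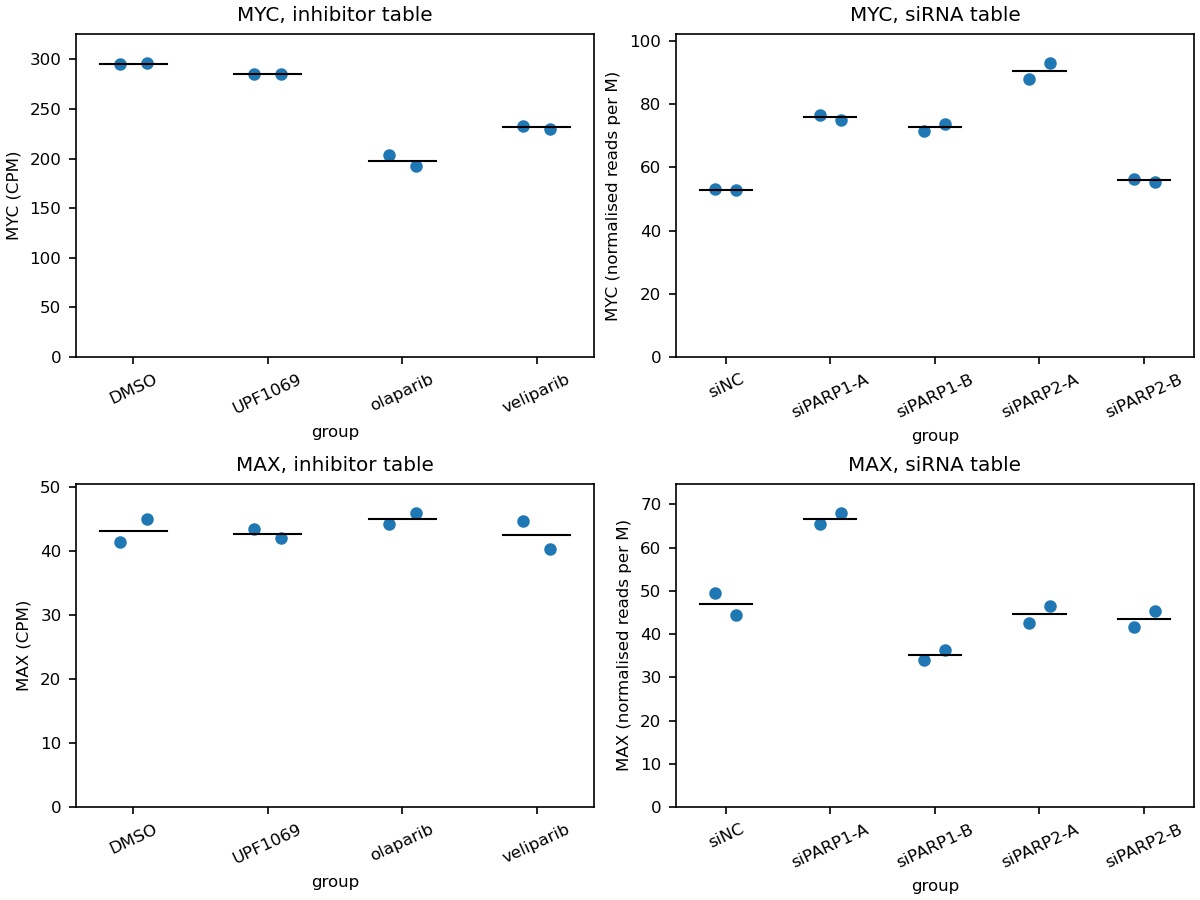
MYC (top) and MAX (bottom) in each library, in CPM for the inhibitor table (left) and normalised reads for the siRNA table (right). Points are the 2 libraries of a group and bars their mean. MYC is lowest in the olaparib libraries (203 and 192 CPM) and highest in siPARP2-A among the siRNA groups (88.1 and 93.0), while MAX is high in siPARP1-A and low in siPARP1-B.

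Olaparib lowered most of the set. Of the 37 genes 28 fell, against 26.8% of all genes tested, and 2 rose, against 25.8%. The median difference over the 37 was -0.23 on the log2 scale, against 0.00 over all genes, and 32 of the 37 were lower in both olaparib libraries than in both DMSO libraries, against 39.3% of all genes. Without MYC and MAX the count was 27 of 35. The 28S rRNA entry RNA28S5 was at 118 and 115 CPM in DMSO and 234 and 124 with olaparib, so that olaparib replicate 1 stood apart. Without that library 25 of the 37 fell and 2 rose.

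The falls with olaparib covered every step. NOP16, a large subunit assembly factor, was at 51.8 and 50.5 CPM in DMSO and 35.4 and 36.2 with olaparib, a fall of 0.50 (SE 0.05, adjusted p = 1.62e-08 by limma). MYBBP1A, a nucleolar protein that binds MYB and acts in rRNA synthesis and processing, was at 137 and 136 CPM in DMSO and 98.1 and 98.2 with olaparib, a fall of 0.47 (SE 0.04, adjusted p = 1.34e-09). NOP14 of the small subunit processome was at 102 and 97.1 CPM in DMSO and 75.1 and 72.6 with olaparib, a fall of 0.42 (SE 0.05, adjusted p = 6.35e-08). The groups did not overlap for any of these 3 genes. By role, 8 of 9 large subunit genes fell (median -0.24), as did 8 of 11 small subunit genes (median -0.23), 4 of 5 RNA polymerase I genes (median -0.16), the 3 box C/D proteins FBL, NOP56 and NOP58 (median -0.24) 2 of the 3 nucleolar chaperones and 2 of the 4 box H/ACA proteins. Box C/D particles guide rRNA methylation, with fibrillarin (FBL) as the methyltransferase.

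The 2 genes that rose with olaparib were GNL3 and NOP10. GNL3 encodes nucleostemin, a nucleolar GTPase, and was at 280.4 and 287 CPM in DMSO and 319.7 and 322 with olaparib, a rise of 0.18 (SE 0.04, adjusted p = 0.000319 by limma). NOP10, a small protein of the box H/ACA particles that guide pseudouridylation, was at 117 and 131 CPM in DMSO and 142 and 144 with olaparib, a rise of 0.21 (SE 0.05, adjusted p = 0.00103). Without DMSO replicate 1 the rise of NOP10 was 0.13 and was no longer called (adjusted p = 0.0775).

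With UPF1069 the called differences also pointed down. Of the 37 genes 21 fell, against 14% of all genes tested, and 0 rose, against 10.3%. At an unadjusted p below 0.05 the count of higher genes in limma was also 0. The adjusted calls of edgeR and DESeq2 held 0 higher genes as well. The median difference was -0.14, against -0.02 over all genes, and 31 of 37 lay below DMSO without overlap, against 37.8% of all genes. The number that fell was 13 with DESeq2, against 8.12% of all genes. It was also smaller without any 1 of the DMSO and UPF1069 libraries, and so was the share of all genes called lower. Over all alternative fits the median difference ran from -0.16 to -0.12. RNA28S5 was at 171 and 221 CPM with UPF1069, above both DMSO libraries, and its part in the result was not tested.

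NOP16 fell the most with UPF1069, with 39.4 and 39.9 CPM against 51.8 and 50.5 in DMSO, a fall of 0.36 (SE 0.05, adjusted p = 1.16e-05 by limma). LAS1L, which helps to remove an internal spacer from the rRNA precursor, was at 84.1 and 84.4 CPM against 105 and 101, a fall of 0.29 (SE 0.04, adjusted p = 5.47e-05). GAR1, a core box H/ACA protein, was at 21.7 and 21.9 CPM against 26.0 and 27.4, a fall of 0.28 (SE 0.07, adjusted p = 0.00382), and was not called without DMSO replicate 2 (-0.24, adjusted p = 0.0673). Both treated libraries were below both controls for each of these 3. PPAN, a large subunit factor whose gene shares read-through transcripts with its neighbour, was low, at 8.1 and 9.3 CPM in DMSO and 7.0 and 7.0 with UPF1069. Its fall of 0.28 was at the threshold (adjusted p = 0.0497) and was lost with edgeR, with DESeq2 and without any 1 of the DMSO and UPF1069 libraries, with values of -0.36 to -0.19. By role 7 of 9 large subunit and 7 of 11 small subunit genes fell, while MYC, MAX, FBL and NOP56 were not called.

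Veliparib gave a mixed result. Of the 37 genes 11 rose, against 17.2% of all genes tested, and 7 fell, against 23.2%, and the median was 0.02 against -0.00 over all genes. UTP20, a large scaffold of the small subunit processome, was at 65.0 and 60.8 CPM in DMSO and 83.3 and 79.5 with veliparib, a rise of 0.37 (SE 0.05, adjusted p = 2.66e-06 by limma). NOLC1, a nucleolar phosphoprotein that escorts snoRNPs, was at 298 and 299 CPM in DMSO and 359.6 and 359 with veliparib, a rise of 0.27 (SE 0.04, adjusted p = 3.67e-06). In both genes the veliparib libraries were above both controls. The nucleolar chaperones NCL (0.19) and NPM1 (0.14) rose as well, although NPM1 has many processed pseudogenes that can share its reads and was not called without DMSO replicate 1 (0.13, adjusted p = 0.0724). After MYC the genes that fell the most were PPAN (-0.29) and RRP9 (-0.25), a box C/D protein of the U3 particle.

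The veliparib values ran with the GC content of the transcript. Over 13075 genes Spearman's rho between GC content and the veliparib difference was -0.69, against -0.12 for olaparib and 0.11 for UPF1069, and over the 37 genes it was -0.68. These are correlations across genes of the same libraries, and genes are not independent replicates. The 37 genes had a median GC content of 51.1%, against 48.1% over all genes, and ran from 37.7% (WDR75) to 63.2% (PPAN). After correction for GC content and length 14 of the 37 were higher with veliparib, against 11.1% of all genes, and 3 lower, against 12.2%. RRP9 was then at -0.00 (adjusted p = 0.991 by limma), PPAN at 0.02 (adjusted p = 0.903), MYBBP1A at 0.00 (adjusted p = 0.969) and NPM1 at 0.07 (adjusted p = 0.0703), while the calls for MYC, UTP20 and NOLC1 held. RNA28S5 was at 743 and 805 CPM in the veliparib libraries, the highest of the table. The part of either measure in the result was not tested. With olaparib the correction left 28 lower, against 26.6% of all genes, and 2 higher, against 31.4%. With UPF1069 it left 24 lower, against 16.9%, and 0 higher, against 14.0%.

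**Figure D2:**
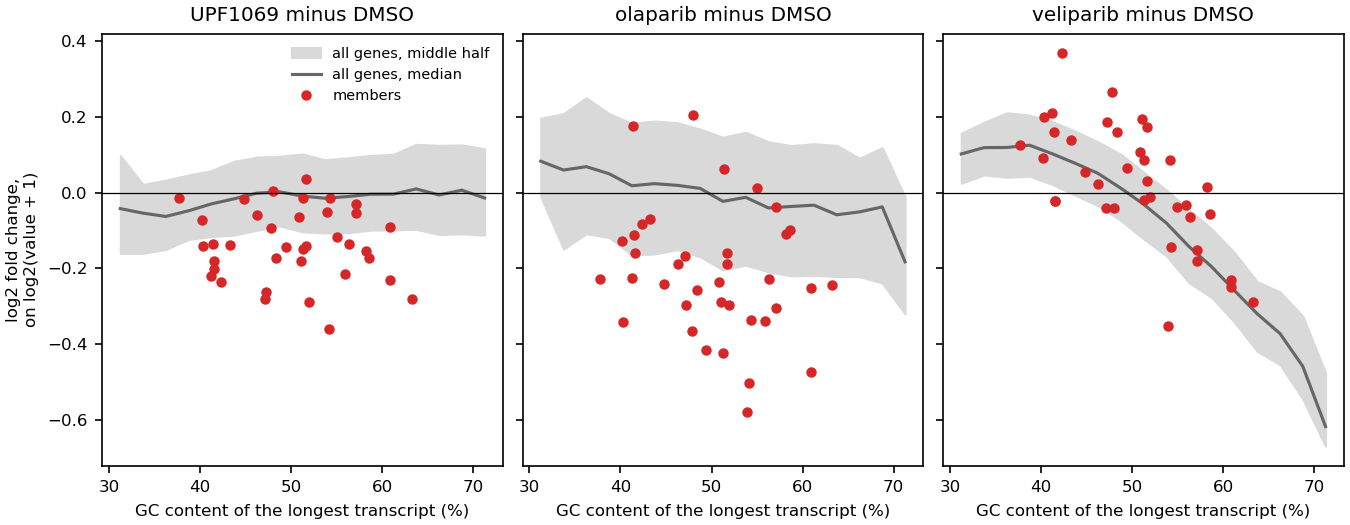
Difference from DMSO (log2 scale, vertical axis) against GC content of the longest transcript (%, horizontal axis), 1 panel per inhibitor. Red points are the 37 genes, the line is the median of all genes in bins of GC content and the band their middle 50%. The veliparib line falls from left to right and the red points follow it, with MYC (-0.35) below the band, while in the olaparib and UPF1069 panels most red points lie below the line.

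The 3 inhibitors were compared directly at the same dose and time, in 3 pairs, with p-values adjusted over genes within each pair and not over the pairs. Olaparib stood below veliparib in 26 of the 37 genes (27.7% of all genes were lower) and above it in 2 (31.7% were higher), with a median of -0.22. NOLC1 was at 228 and 235 CPM with olaparib and 359.6 and 359 with veliparib, a difference of -0.63 (95% interval -0.71 to -0.56, adjusted p = 1.2e-12 by limma). NOP16 differed by -0.59 and WDR43, a small subunit processome protein, by -0.54.

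UPF1069 stood below veliparib in 23 of 37 genes (24.9% lower) and above it in 5 (25.9% higher), with a median of -0.17. UTP20 was at 52.2 and 54.3 CPM with UPF1069 and 83.3 and 79.5 with veliparib, a difference of -0.60 (95% interval -0.70 to -0.50, adjusted p = 1.4e-09 by limma). NOP16 and NCL each differed by -0.45. MYC went the other way, at 0.30 above veliparib (adjusted p = 8.41e-07). With the GC correction 25 genes were lower and 2 higher, against 2729 and 2535 of 13075 genes. The number higher was 2 without UPF1069 replicate 2 and 3 without UPF1069 replicate 1 or veliparib replicate 1.

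UPF1069 stood above olaparib in 16 of 37 genes (24.2% higher) and below it in 4 (27% lower), with a median of 0.06, and leaving out olaparib replicate 1 brought the called genes from 20 to 13. The 4 below became 2 without UPF1069 replicate 1 or either olaparib replicate and 7 without veliparib replicate 1. MYC showed the widest gap of the set, at 0.53 above olaparib (95% interval 0.45 to 0.60, adjusted p = 8.94e-11 by limma), followed by MYBBP1A (0.38, 128 and 128 CPM against 98.1 and 98.2) and FBL (0.32). GNL3 went the other way by -0.31, with 255 and 262 CPM under UPF1069. For 17 genes the difference was not called. Among them were NOP58 (109 to 111 CPM in the 4 libraries, difference 0.01, 95% interval -0.10 to 0.11), LAS1L (0.01, interval -0.09 to 0.10) and RRP9 (0.02, interval -0.07 to 0.11).

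RRP9 and PPAN were called lower against DMSO by limma with each of the 3 inhibitors; the PPAN calls were lost with DESeq2 (adjusted p of 0.198, 0.152 and 0.124 for UPF1069, olaparib and veliparib). RRP9 was at 82.8 and 82.5 CPM in DMSO, 71.7 and 68.9 with UPF1069, 69.1 and 69.4 with olaparib and 68.5 and 70.5 with veliparib. The differences were -0.23, -0.25 and -0.25, share the DMSO libraries, and include the veliparib value that was lost with the GC correction. The share of all genes called lower with each of the 3 inhibitors was not counted. In single comparisons it was 14% (UPF1069) to 26.8% (olaparib) of all genes that fell.

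**Figure D3:**
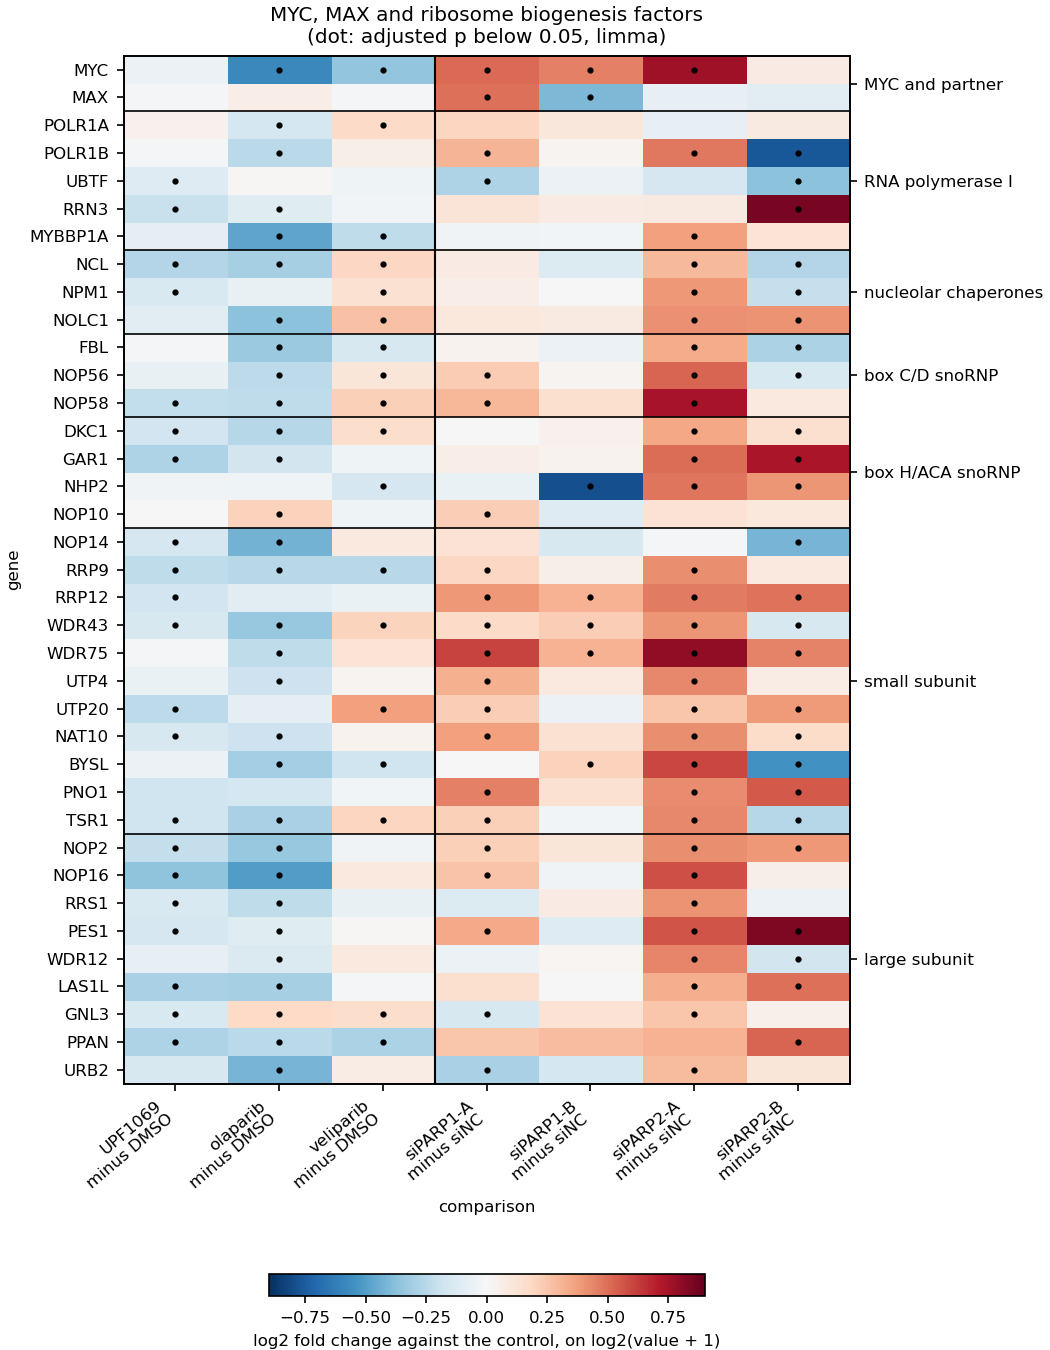
Difference from the control on the log2 scale for the 37 genes (rows, grouped by role) in the 3 inhibitor comparisons against DMSO (left of the line) and the 4 siRNA comparisons against siNC (right). Blue is lower, red is higher and a dot marks an adjusted p below 0.05 in limma. The olaparib column holds 28 dotted falls and 2 dotted rises, and the siPARP2-A column 30 dotted rises.

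PARP2 siRNA A raised most of the set. With siPARP2-A 30 of 37 genes rose, against 24.5% of all genes tested, and 0 fell, against 24.9%. At an unadjusted p below 0.05 limma also gave 0 lower genes, as did the adjusted calls of edgeR and DESeq2, both of which called 30 higher. The absence of falls did not hold without siNC replicate 1 or without siPARP2-A replicate 1. The median was 0.41, against -0.00 over all genes, and 32 of 37 were above siNC without overlap, against 36.4% of all genes. In the same libraries all 10 luminal markers fell (median -0.96), and their part in the result was not tested.

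WDR75, a subunit of the t-UTP complex that links rRNA transcription to processing, was at 69.0 and 63.7 normalised reads in siNC and 115 and 117 in siPARP2-A, a rise of 0.80 (SE 0.06, adjusted p = 2.57e-10 by limma). NOP58, a core box C/D protein, was at 163 and 152 against 276 and 252, a rise of 0.74 (SE 0.06, adjusted p = 6.03e-10). BYSL, needed to mature the small subunit, was at 31.8 and 35.0 against 50.3 and 51.8, a rise of 0.60 (SE 0.08, adjusted p = 6.25e-07). The siPARP2-A libraries were above both siNC libraries for each of these 3 genes. By role, 10 of 11 small subunit genes rose (median 0.43), 8 of 9 large subunit genes (median 0.40), 3 of 4 box H/ACA proteins (median 0.42), and the 3 nucleolar chaperones and 3 box C/D proteins together (medians 0.39 and 0.52). Of the 5 RNA polymerase I genes 2 rose (median 0.08): POLR1B, a core subunit, by 0.47 and MYBBP1A by 0.37, while POLR1A (-0.07), UBTF (-0.15) and RRN3 (0.08) were not called. MYBBP1A was at 0.26 without siNC replicate 1 and 0.24 without siPARP2-A replicate 1 and was then not called.

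PARP2 siRNA B moved the genes in both directions. With siPARP2-B 14 of 37 rose, against 30.9% of all genes tested, and 11 fell, against 35.2%, with a median of 0.09 against -0.03. By limma these shares are near those of all genes. The number that fell was 8 with edgeR, against 34.1% of all genes, and 7 with DESeq2, against 29.8%, while 14 and 13 rose. RRN3, the initiation factor that brings RNA polymerase I to the rDNA promoter, was at 126 and 126 normalised reads in siNC and 229.8 and 228 in siPARP2-B, a rise of 0.85 (SE 0.06, adjusted p = 1.04e-11 by limma), though near-identical copies of RRN3 in the genome can share its reads. PES1, the pescadillo protein of the large subunit, was at 95.8 and 103 against 178 and 179, a rise of 0.84 (SE 0.06, adjusted p = 4.35e-12). POLR1B was at 67.3 and 59.5 against 39.1 and 34.9, a fall of 0.76 (SE 0.07, adjusted p = 1.42e-09). All 3 were outside the siNC range in both libraries.

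GAR1 (26.6 and 25.1 in siNC, 46.5 and 41.0 in siPARP2-B) rose by 0.73, and PNO1 (36.9 and 36.5 against 52.8 and 56.0), which works with NOB1 on the small subunit, rose by 0.55. BYSL (31.8 and 35.0 against 22.4 and 22.8) fell by 0.55. PARP1 mRNA was also low in these libraries, as given above, and the 10 luminal markers fell (median -1.66). The part of either in these differences was not tested.

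The siPARP2 sequences differed from each other in 26 of 37 genes: 22 were higher with A, against 34.3% of all genes, and 4 lower, against 30.6%, with a median of 0.24. The number lower was 2 without siPARP2-A replicate 2 or siPARP2-B replicate 1. POLR1B was at 86.9 and 90.0 normalised reads with A and 39.1 and 34.9 with B, a difference of 1.24 (95% interval 1.09 to 1.39, adjusted p = 1.55e-13 by limma). BYSL, at 50.3 and 51.8 against 22.4 and 22.8, differed by 1.14 (interval 0.98 to 1.30, adjusted p = 2.15e-12). RRN3 was the reverse, at 128 and 139 with A and 229.8 and 228 with B (-0.77, adjusted p = 6.94e-11). TSR1, a GTPase-like factor of late small subunit maturation, differed by 0.69 and MYC by 0.68. The sequences gave close values for NOP2, an rRNA methyltransferase (0.42 and 0.39 against siNC, difference 0.03, 95% interval -0.10 to 0.16), for NOLC1 (0.41 and 0.40, difference 0.00, interval -0.10 to 0.11) and for RRP12, a small subunit export factor (0.47 and 0.49, difference -0.02, interval -0.17 to 0.13).

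**Figure D4:**
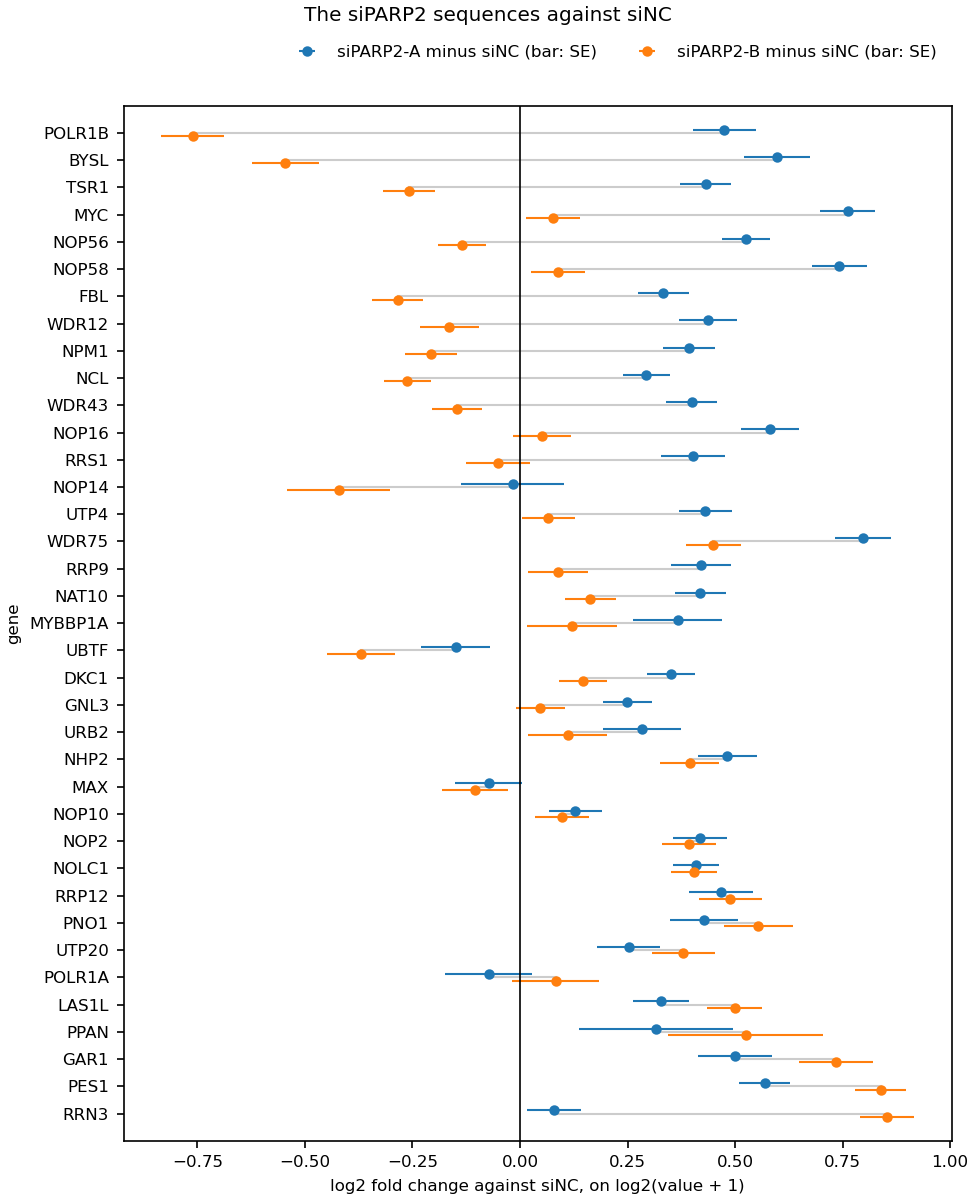
Difference from siNC (log2 scale, horizontal axis) of each of the 37 genes with siPARP2-A (blue) and siPARP2-B (orange), with bars for the standard error, ordered by the gap between the sequences. POLR1B, BYSL and TSR1 at the top are right of 0 with A and left of 0 with B, RRN3 at the bottom is near 0 with A and at 0.85 with B, and NOP2, NOLC1 and RRP12 lie at nearly the same value with both.

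The PARP1 siRNAs differed from each other in how many of the genes they moved. With siPARP1-A 18 of 37 genes rose, against 25.5% of all genes tested, and 3 fell, against 28.9%, with a median of 0.19 against -0.01. The number that fell was 1 without siNC replicate 2 or either siPARP1-A replicate. WDR75 was at 99.6 and 103 normalised reads against 69.0 and 63.7 in siNC, a rise of 0.61 (SE 0.06, adjusted p = 1.89e-08 by limma), and PNO1 at 46.3 and 55.2 against 36.9 and 36.5, a rise of 0.45 (SE 0.08, adjusted p = 3.71e-05). Both groups were clear of the siNC libraries. Of the rises 9 were among the 11 small subunit genes. URB2, a large subunit factor, fell by 0.29 (23.6 and 24.1 against 29.0 and 30.0) and UBTF, which binds rDNA for RNA polymerase I, by 0.28 (52.8 and 47.7 against 57.3 and 64.8). Neither call held in every fit with a library left out. URB2 was at -0.27 without siNC replicate 2 and -0.28 without siPARP1-A replicate 1, close to the full fit, and was then not called. UBTF was at -0.19 without siNC replicate 2 and -0.20 without siPARP1-A replicate 2, and was then not called. The 10 luminal markers fell in these libraries (median -1.07), and their part was not tested.

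With siPARP1-B 5 of 37 genes rose, against 16.4% of all genes tested, and 2 fell, against 23.9%, and the median was 0.03 against -0.03. The count of rises turned on the fit: it was 8 with edgeR, against 18.7% of all genes, and 7 with DESeq2, against 13.6%, both with 2 falls, and 3 in limma without siPARP1-B replicate 2. The share of the 37 genes that rose was thus below that of all genes by limma and above it by edgeR and DESeq2. NHP2, a box H/ACA core protein, was at 103 and 105 normalised reads in siNC and 62.2 and 57.3 in siPARP1-B, a fall of 0.79 (SE 0.07, adjusted p = 1.57e-09 by limma) to 0.579 times the siNC level. No other group of the siRNA table held NHP2 below 93.0. Beside MYC the rises were RRP12 (0.31, adjusted p = 0.00163), WDR75 (0.31, adjusted p = 0.000407), WDR43 (0.22, adjusted p = 0.00431) and BYSL (0.21, adjusted p = 0.0351). WDR43 was not called without siPARP1-B replicate 2 (0.19, adjusted p = 0.0517). BYSL was not called without siNC replicate 1 (0.14, adjusted p = 0.246) or without siPARP1-B replicate 1 (0.19, adjusted p = 0.145) or 2 (0.22, adjusted p = 0.084). With the GC and length correction the counts were 10 higher, against 20.3% of all genes, and 3 lower, against 23.5%.

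Between the PARP1 sequences 15 of 37 genes were higher with A, against 28.4% of all genes, and 4 lower, against 26.5%, with a median of 0.11. The number lower was 1 without siPARP1-A replicate 2 or siPARP1-B replicate 2 and 2 without siPARP1-B replicate 1. After MAX the widest gaps in limma's fit were NHP2 (107 and 93.0 with A, 62.2 and 57.3 with B, difference 0.73, adjusted p = 1.96e-09) and PES1 (127 and 125 against 93.9 and 89.8, difference 0.45, adjusted p = 4.92e-07). MYC differed by 0.06 (95% interval -0.07 to 0.19).

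WDR75 and RRP12 were the genes of the set that limma called in the same direction with each of the 4 siRNAs. WDR75 rose by 0.61, 0.31, 0.80 and 0.45 and RRP12 by 0.39, 0.31, 0.47 and 0.49, in the order siPARP1-A, siPARP1-B, siPARP2-A and siPARP2-B. RRP12 was at 35.8 and 37.5 normalised reads in siNC, and the 8 siPARP libraries ranged from 44.1 to 53.9. These comparisons share the siNC libraries. The share of all genes called in the same direction with each of the 4 siRNAs was not counted. In single comparisons it was 16.4% (siPARP1-B) to 30.9% (siPARP2-B) of all genes that rose.

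The mean of the PARP2 siRNAs was also set against the mean of the PARP1 siRNAs. There 20 of 37 genes were higher, against 33.3% of all genes, and 3 lower, against 32.2%, with a median of 0.15. The number lower was 1 without siPARP1-A replicate 2. The widest differences were NHP2 (0.86), PES1 (0.59) and GAR1 (0.57), with adjusted p of at most 1.18e-08 by limma. These p-values measure the spread between libraries and not between siRNA sequences. PARP1 was also low in siPARP2-B (160.5 and 145 normalised reads, against 452 and 479 in siNC). The contrast therefore does not set loss of PARP2 alone against loss of PARP1. The sequences of a target also differed: NHP2 had means of 100 in siPARP1-A and 59.8 in siPARP1-B. Its means were 146 in siPARP2-A, 137 in siPARP2-B and 104 in siNC. In 8 genes (DKC1, GAR1, LAS1L, NHP2, NOLC1, NOP2, PES1 and URB2) all 4 PARP2 libraries were above all 4 PARP1 libraries, against 11.8% of all genes. MYC had a difference of -0.06 (95% interval -0.15 to 0.03).

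**Figure D5:**
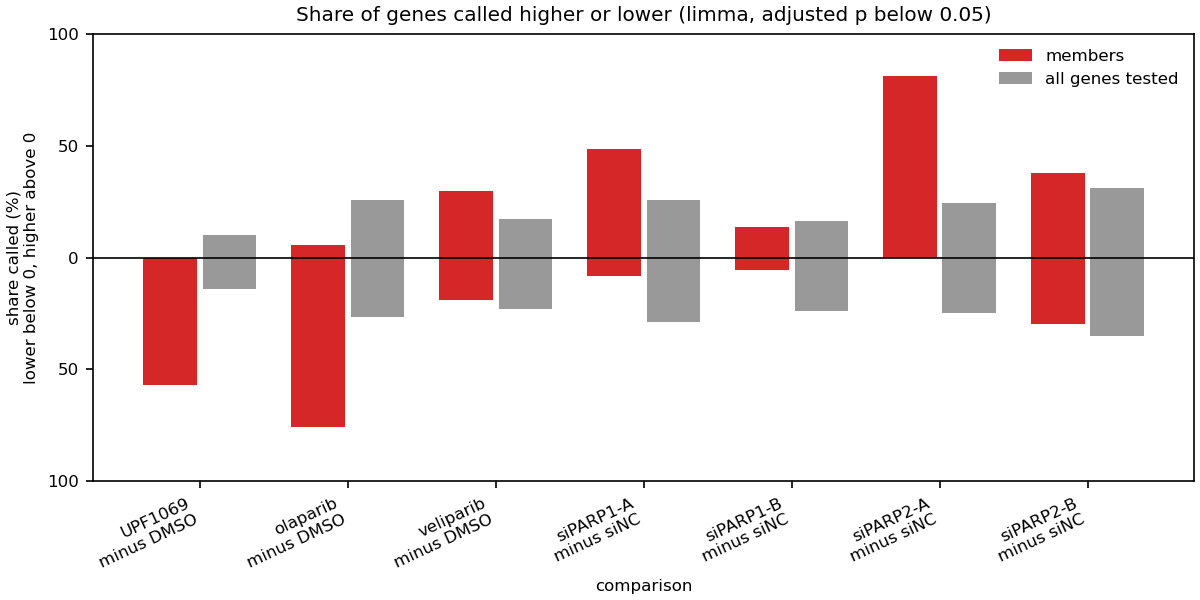
Share of genes called higher (above 0) or lower (below 0) against the control, in percent, for the 37 genes (red) and for all genes tested (grey) in the 7 comparisons with a control. The red bars reach furthest down for olaparib (28 of 37 genes) and furthest up for siPARP2-A (30 of 37), and for siPARP2-B the red and grey bars are of similar length.

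The genes were also divided by the hexamer of the promoter windows. With siPARP2-A 13 of the 15 genes with it rose (median 0.42) and 11 of the 16 without it (median 0.37). With olaparib 11 of 15 fell (median -0.19) against 12 of 16 (median -0.23). No test was made of this split, and 6 genes without a window stand outside it. The windows printed above show the same range within the hexamer group: BYSL fell with siPARP2-B and rose with siPARP2-A, PES1 and GAR1 rose with both, and GNL3 and NOP10 rose with olaparib while MYBBP1A and NOP14 fell.

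Other genes of the pathway, from lists without the 38, were counted the same way. With siPARP2-A 38 of 45 further small subunit processome genes rose (median 0.38), 40 of 51 large subunit assembly genes rose and 2 fell (median 0.39), 15 of 19 exosome and nuclease genes rose (median 0.32) and 12 of 17 further RNA polymerase I genes rose (median 0.37). Among them NMD3, the export adaptor of the large subunit, rose by 1.07, POLR1E, an RNA polymerase I subunit, by 1.02, and NOB1, the nuclease that makes the mature end of 18S rRNA, by 0.95. These shares stand beside 24.5% of all genes. With siPARP2-B 24 of 45 processome genes rose and 3 fell, and 20 of 51 large subunit genes rose and 13 fell, against 30.9% higher and 35.2% lower over all genes. SNU13, the box C/D protein that binds the snoRNA kink turn, fell by 1.78 and RRP1B by 1.98.

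With olaparib 26 of the 51 further large subunit genes fell and 5 rose (median -0.13), and 19 of the 45 processome genes fell and 1 rose (median -0.10), against 26.8% and 25.8% of all genes. TCOF1, the treacle protein that supports RNA polymerase I, fell by 1.06, from a mean of 40.8 to 19.1 CPM. With UPF1069 the counts were 21 of 51 lower and 1 higher (median -0.12) and 18 of 45 lower and 1 higher (median -0.12), against 14% lower and 10.3% higher over all genes. MAK16, a large subunit factor, fell by 0.41 with UPF1069 and by 0.39 with olaparib. With veliparib they were 23 of 51 higher and 10 lower, and 17 of 45 higher and 8 lower, against 17.2% higher and 23.2% lower. The veliparib counts are without the GC correction, and the part of GC content in them was not tested. With siPARP1-A 15 of 51 large subunit genes rose and 8 fell, and 19 of 45 processome genes rose and 6 fell, against 25.5% higher and 28.9% lower. The large subunit share of rises (29.4%) is near that of all genes. With siPARP1-B 14 of 51 rose and 5 fell, and 14 of 45 rose and 6 fell, against 16.4% higher and 23.9% lower.

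Of 26 further textbook MYC targets tested in the inhibitor table, 17 fell and 0 rose with olaparib, against 26.8% lower and 25.8% higher over all genes, and 13 fell and 0 rose with UPF1069, against 14% and 10.3%. At an unadjusted p below 0.05 limma gave 0 higher genes with olaparib and 1 with UPF1069. SRM, which makes the polyamine spermidine, fell by 0.69 and CAD, which starts pyrimidine synthesis, by 0.50 with olaparib. With veliparib, without the GC correction, 11 fell and 5 rose, against 23.2% and 17.2%. Of 23 tested after siRNA, 13 rose and 4 fell with siPARP2-A, against 24.5% higher and 24.9% lower over all genes. With siPARP1-A 8 rose and 5 fell, against 25.5% and 28.9%, and with siPARP1-B 6 rose and 5 fell, against 16.4% and 23.9%. With siPARP2-B 6 rose and 9 fell, near the 30.9% and 35.2% of all genes. SHMT2, a mitochondrial serine hydroxymethyltransferase, rose by 1.43, 1.91, 1.72 and 0.74 with siPARP1-A, siPARP1-B, siPARP2-A and siPARP2-B.

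Among the partners and antagonists of MYC, MXD3, which competes with MYC for MAX, fell by 0.48 with UPF1069, 0.74 with olaparib and 0.54 with veliparib, from a mean of 19.8 CPM in DMSO. MXD4, of the same family, fell by 0.57 with siPARP1-A and 0.55 with siPARP2-A. With siPARP2-B MXD3 fell by 1.72, from 4.85 to 0.78 normalised reads, and FBXW7, the ubiquitin ligase subunit that marks MYC for degradation, rose by 1.12. Over the list 9 of 14 fell and 3 rose with olaparib, against 26.8% lower and 25.8% higher over all genes. With siPARP2-A 7 of 13 fell and 2 rose, against 24.9% and 24.5%.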

How the data were processed

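LNCaP RNA-seq was deposited as 2 tables of gene values. Per the labels' protocols, total RNA was extracted with RNeasy and libraries made with NEBNext Ultra. The submitters' processing notes list the build hg19 and, without roles, edgeR 3.12.0, HTSeq 0.6.1, TopHat2 2.1.0 and bcl2fastq 2.18. The inhibitor table as deposited holds CPM after scaling, and the siRNA table as deposited holds a normalised signal (reads per 1 M after scaling). Strand use in counting is not given in the sources used here. Multiples of each library's smallest step gave whole reads for 100% of values within 0.01, so depth is known: 3 reads equal 0.0841 to 0.113 CPM or 0.169 to 0.207 normalised reads.

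Genes with a mean of at least 1 were tested with limma 3.58.1 in R 4.3.3, with a trend, 2-sided, on log2(value + 1), which understates changes of low genes. Each table was fitted alone with all its groups, 4 and 5 residual degrees of freedom, and Benjamini-Hochberg adjustment at 0.05. Alternatives were edgeR 4.0.16 and DESeq2 1.42.0 on recovered reads, RLE size factors, a pseudocount of 0.5, no filter, only the groups compared, GC content and length correction (natural splines, longest GENCODE transcript), a replicate block, and leaving out each library. The script was tested on simulated data. The 13 contrasts share controls within a table.

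The 38 genes and all lists were chosen with earlier results of these data known. Values per library are given for MYC and MAX, up to 4 called genes with the largest change per control comparison, up to 2 called the other way, up to 3 in other comparisons, and up to 4 per further list. Genes given with close values in a comparison were chosen after their values were seen.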

Additional observations from a re-analysis of the deposited data

Results flagged for a closer look

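Of the 37 genes, 10 were called in opposite directions with the 2 siRNAs of 1 target. The share of all genes called so was not counted, so the 10 cannot be called particular to the set. Of all genes, 25.5% rose with siPARP1-A and 23.9% fell with siPARP1-B, and 24.5% rose with siPARP2-A and 35.2% fell with siPARP2-B. For each of the 10 genes called in opposite directions, the direct contrast of the sequences was called by limma as well. With PARP1 siRNAs this held for MAX, at 0.50 with siPARP1-A and -0.40 with siPARP1-B, a difference of 0.90 (adjusted p = 4.11e-10).

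With PARP2 siRNAs it held for 9 genes, each higher with siPARP2-A and lower with siPARP2-B. The RNA polymerase I subunit POLR1B (0.47 and -0.76) differed by 1.24, and the small subunit factors BYSL (0.60 and -0.55) by 1.14, TSR1 (0.43 and -0.26) by 0.69 and WDR43 (0.40 and -0.15) by 0.55. The box C/D proteins NOP56 (0.52 and -0.13) and FBL (0.33 and -0.28) differed by 0.66 and 0.62, the large subunit protein WDR12 (0.44 and -0.16) by 0.60, and the chaperones NPM1 (0.39 and -0.21) and NCL (0.29 and -0.26) by 0.60 and 0.56. The adjusted p of these contrasts was at most 2.87e-08 in limma. The siPARP2-B calls of NOP56, WDR43 and WDR12 were lost with edgeR (-0.11, -0.13 and -0.15). NOP56 was also lost without siNC replicate 2 or siPARP2-B replicate 2 (-0.11 and -0.09), WDR43 without siNC replicate 1 or either siPARP2-B replicate (-0.11, -0.16 and -0.13), WDR12 without either siNC replicate or siPARP2-B replicate 2 (-0.18, -0.15 and -0.10), and NPM1 without siNC replicate 1 (-0.13).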

How the results depend on the processing

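The median difference of the 37 genes kept its sign in all 13 comparisons under each alternative run. For siPARP2-A it ran from 0.39 to 0.43, for olaparib from -0.25 to -0.20 and for UPF1069 from -0.16 to -0.12. The count of called genes stayed within 1.5 times the reported one in 227 alternative fits and moved further in 8. For UPF1069 against DMSO it was 13 with DESeq2, against 21, and 10 to 25 when 1 library was left out. Without olaparib replicate 1 it was 13 for UPF1069 against olaparib, against 20, with a range of 13 to 25 without 1 library. For siPARP1-B it was 13 with the GC and length correction, against 7, and also 13 with the replicate block in the same fit. Replicate numbers did not pair the libraries, with correlations of deviations of -0.14 to 0.11. The replicate block alone gave 19 called genes for UPF1069, 28 for olaparib, 18 for veliparib and 30 for siPARP2-A.

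Of 296 called differences of single genes, edgeR kept 285, DESeq2 256, the replicate block 289 and the GC and length correction 271. That correction reversed 8, each in a comparison with veliparib and to the same values with the replicate block: PPAN (0.0206) and MYBBP1A (0.00223) against DMSO, BYSL (-0.0408), WDR75 (0.0155), MYBBP1A (-0.10), WDR12 (0.0174) and NHP2 (-0.0112) for UPF1069 against veliparib, and NHP2 (-0.00172) for olaparib against veliparib. The cause of these changes was not tested. With 2 libraries a group, small differences of low genes such as PPAN are not resolved.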
